A study of Mus musculus with 13 samples.

Results

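The annexins and S100 proteins were followed as 10 named genes, Anxa1, Anxa2, Anxa3, Anxa4, Anxa5, S100a4, S100a6, S100a8, S100a9 and S100a10, of the 24532 genes measured. Every row with 1 of these symbols was taken, whatever its value, and all 10 were present with a read count and an FPKM (fragments mapped, scaled by transcript length and library depth) in each of 13 bulk RNA-seq libraries. Bone marrow of C57BL/6 mice of 8 to 14 weeks of age was kept 8 to 10 days in culture, and CD11c+ MHCII+ cells were then sorted. The cultures held either FLT3 ligand at 10 µg/ml (FL-BM culture) or GM-CSF at 0.5 µg/ml (GM-BM culture). FL-BM culture gave 5 subsets, namely mature FL-cDC2s (CD115- CX3CR1- CD83+ cDC2s), immature FL-cDC2s (the CD83- counterpart), mature FL-cDC1s (CD83+ cDC1s), immature FL-cDC1s (CD83- cDC1s) and non-DCs, which fell in the cDC2 gate but were CD115+ CX3CR1+. GM-BM culture gave GM-DCs and GM-Macs, and each subset had 2 libraries except the mature FL-cDC1s, which had 1.

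Annexins are proteins that bind acidic phospholipids of membranes when calcium is present, and they act in membrane repair, vesicle traffic and the handling of dying cells. S100 proteins are small calcium-binding proteins with EF-hands that mostly work as dimers, and some dock onto an annexin, the best known pair being S100A10 with annexin A2. Annexin A1 is an anti-inflammatory ligand of formyl peptide receptors, whereas S100A8 and S100A9 form calprotectin, an abundant product of neutrophils and monocytes that signals danger through TLR4.

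The libraries held 46042095 to 71330242 reads in genes. The 5 mature DC markers (Cd83, Ccr7, Fscn1, Ccl22 and Samsn1) summed to 14946 to 18477 FPKM over the mature FL-cDC2 libraries, 12382 in the mature FL-cDC1 library and 10850.0 to 11937 over GM-DCs, against 163 to 751 in the other 4 subsets. The 7 macrophage markers, Csf1r and Lyz2 among them, summed to 47.6 to 4479 FPKM in the DC subsets, against 38516 to 43781 in non-DCs and 33477 to 62492 in GM-Macs. The 3 cDC genes Zbtb46, Flt3 and Dpp4 summed to 112 to 402 FPKM over the DC subsets and to 2.85 to 9.77 over the non-DCs and GM-Macs. The 4 cDC1 markers summed to 162 to 312 FPKM over FL-cDC1s, 16.3 to 28.2 over FL-cDC2s and 103 to 159 in GM-DCs. The 4 cDC2 markers set only immature FL-cDC2s, at 525 to 535 FPKM, apart from FL-cDC1s. They summed to 40.2 to 60.9 in mature FL-cDC2s and 38.9 to 53.2 in immature FL-cDC1s. In non-DCs they reached 741 to 804 and in GM-Macs 425 to 847. Nothing states that the libraries of a subset came from separate mice or cultures, so p-values measure the spread between libraries, which may be technical. All non-DCs and FL-cDCs came from FLT3 ligand and all GM-DCs and GM-Macs from GM-CSF, so culture and subset cannot be told apart across cultures. Mature FL-cDC1s, immature FL-cDC1s and the cDC2-gated subsets each lay in a separate deposited table, so table and subset coincide between them. The second GM-DC and GM-Mac libraries also lay in tables of their own.

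Where the genes sit was read from RefSeq on GRCm38.p6. S100a4 (chr3:90603770-90606045), S100a6 (chr3:90612894-90614414), S100a8 (chr3:90669071-90670034) and S100a9 (chr3:90692630-90695721) lay within 92.0 kb of one another, S100a10 (chr3:93555117-93564645) lay 2859 kb beyond S100a9, and Anxa5 (chr3:36448923-36475887) was on the same chromosome. Anxa1 (chr19:20373434-20390671), Anxa2 (chr9:69453683-69491792), Anxa3 (chr5:96793385-96845968) and Anxa4 (chr6:86736840-86793634) were each on a chromosome of their own. The RefSeq promoter table held 8 of the 10 genes, and Anxa3 and S100a10 are named only. The 250 bases before the start are shown for a pair of annexins with opposite maturation patterns and a pair of S100 genes with unlike levels, with matches to 5 motifs, on either strand, in capitals.
Anxa1 (chr19:20390672-20390921, minus strand): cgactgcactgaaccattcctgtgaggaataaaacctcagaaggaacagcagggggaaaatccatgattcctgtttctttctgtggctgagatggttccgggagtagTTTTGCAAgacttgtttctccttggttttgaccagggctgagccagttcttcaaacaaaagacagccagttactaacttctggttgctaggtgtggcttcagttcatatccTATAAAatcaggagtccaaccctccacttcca
Anxa2 (chr9:69453433-69453682, plus strand): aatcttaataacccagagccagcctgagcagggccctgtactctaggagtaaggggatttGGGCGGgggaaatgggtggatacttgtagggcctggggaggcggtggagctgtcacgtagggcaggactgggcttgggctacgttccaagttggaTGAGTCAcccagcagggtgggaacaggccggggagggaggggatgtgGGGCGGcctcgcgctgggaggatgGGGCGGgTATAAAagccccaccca
S100a4 (chr3:90603520-90603769, plus strand): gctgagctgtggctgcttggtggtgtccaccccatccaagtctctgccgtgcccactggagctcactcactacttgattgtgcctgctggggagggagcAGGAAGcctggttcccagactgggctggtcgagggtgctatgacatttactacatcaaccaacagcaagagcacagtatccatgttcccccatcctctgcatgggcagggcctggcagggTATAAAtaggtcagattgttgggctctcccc
S100a8 (chr3:90668821-90669070, plus strand): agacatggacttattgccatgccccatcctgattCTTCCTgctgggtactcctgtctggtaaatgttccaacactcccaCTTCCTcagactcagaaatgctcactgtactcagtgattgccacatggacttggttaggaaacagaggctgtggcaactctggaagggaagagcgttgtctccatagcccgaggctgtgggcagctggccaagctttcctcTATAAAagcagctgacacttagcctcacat
The motifs searched were that of TBP, TATAAA, that of Sp1, GGGCGG, that of AP-1, TGANTCA, that of ETS factors, AGGAAG, and that of C/EBP factors, TTGCNNAA, and none of the matches shown overlap. TATAAA began 32, 17, 31 and 30 bases before the start of Anxa1, Anxa2, S100a4 and S100a8, and it was found somewhere in the same window of 12.4% of 32851 mouse promoters. The other shares were 32.7% for GGGCGG, 6.75% for TGANTCA, 29.5% for AGGAAG and 9.56% for TTGCNNAA. The Anxa2 window held 3 Sp1 matches and 1 AP-1 match, the Anxa1 window 1 C/EBP match, the S100a4 window 1 ETS match and the S100a8 window 2 ETS matches. These are matches of letters and not shown binding sites.

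Among the annexins, Anxa1 had the widest range of the genes detected in all libraries apart from Anxa3. It stood at 7.07 and 9.97 FPKM in mature FL-cDC2s, 219.7 and 235 FPKM in immature FL-cDC2s, 93.6 FPKM in the mature FL-cDC1 library, 430.4 and 520.3 FPKM in immature FL-cDC1s, 106 and 167 FPKM in GM-DCs, 1397 and 1405 FPKM in non-DCs and 361 and 632 FPKM in GM-Macs. Non-DCs were thus highest and mature FL-cDC2s lowest, with a 164-fold ratio of their means, and of the 6 pairs of neighbours in the order of means only GM-Macs and immature FL-cDC1s overlapped. In bulk RNA, fewer cells that express a gene and less RNA per cell cannot be told apart. Anxa1 fell by 4.32 on the log2 scale in mature FL-cDC2s relative to immature FL-cDC2s (SE 0.26, adjusted p = 1.44e-05) and fell by 2.43 in mature FL-cDC1s relative to immature FL-cDC1s (SE 0.51, adjusted p = 0.00862). It was also lower in mature FL-cDC2s than in non-DCs (log2 fold change -7.57, SE 0.31, adjusted p = 3.34e-06) and in GM-DCs than in GM-Macs (-2.12, SE 0.47, adjusted p = 0.0244). Among the DC subsets the sum of the 7 macrophage markers was lowest and highest where Anxa1 was. It was 47.6 to 48.4 FPKM in mature FL-cDC2s, 998 to 1791 in immature FL-cDC2s, 1066 in mature FL-cDC1s, 4034 to 4479 in immature FL-cDC1s and 838 to 1563 in GM-DCs. Lyz2 gave most of each sum outside mature FL-cDC2s. Csf1r, Cx3cr1, Adgre1, Mertk and Fcgr1 were each higher in another DC subset than in immature FL-cDC1s. Csf1r had 9.52 and 4.77 FPKM in immature FL-cDC1s against 53.6 and 138 FPKM in GM-DCs. By subset mean all 7 reached 1 FPKM in GM-DCs, non-DCs and GM-Macs, and Mertk alone was at 0 reads in every library of a subset, the immature FL-cDC1s. The part of admixed cells in the Anxa1 values was not tested.

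Anxa3, which binds membranes of granules and vesicles in myeloid cells, was high in mature and low in immature FL-cDCs. It was read at 724 and 859 FPKM in mature FL-cDC2s, 2.102 and 6.46 FPKM in immature FL-cDC2s, 285 FPKM in mature FL-cDC1s, 0.190 and 0.634 FPKM in immature FL-cDC1s, 439.7 and 356 FPKM in GM-DCs, 124 and 146 FPKM in non-DCs and 205 and 224 FPKM in GM-Macs. No neighbouring subsets overlapped, and the mean of mature FL-cDC2s was 1921 times that of immature FL-cDC1s. Anxa3 was higher in mature than in immature FL-cDC2s by 7.92 on the log2 scale (SE 0.62, adjusted p = 3.69e-05) and in mature than in immature FL-cDC1s by 9.31 (SE 0.84, adjusted p = 5.45e-05). Both macrophage-marked subsets also held the transcript, and the mature FL-cDC2s exceeded the non-DCs by 2.34 on the log2 scale (SE 0.48, adjusted p = 0.00438).

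Anxa4, an annexin of epithelial and vesicle membranes, shared the low level in the immature FL-cDCs. Its values were 352 and 366 FPKM in mature FL-cDC2s, 80.7 and 91.4 FPKM in immature FL-cDC2s, 291 FPKM in mature FL-cDC1s, 32.5 and 26.4 FPKM in immature FL-cDC1s, 361 and 459 FPKM in GM-DCs, 536 and 553 FPKM in non-DCs and 283 and 325 FPKM in GM-Macs. The 4 immature FL-cDC libraries lay below the other 9, while GM-DCs overlapped mature FL-cDC2s and GM-Macs overlapped the mature FL-cDC1 library. Anxa4 was higher by 2.47 on the log2 scale in mature over immature FL-cDC2s (SE 0.21, adjusted p = 5.16e-05) and by 3.26 in mature over immature FL-cDC1s (SE 0.29, adjusted p = 4.73e-05). It was lower in mature FL-cDC2s than in non-DCs by a log2 fold change of -0.81 (SE 0.20, adjusted p = 0.0101), which missed the threshold without non-DC replicate 1 (adjusted p = 0.0575), without non-DC replicate 2 (0.0711) and without mature FL-cDC2 replicate 1 (0.0523).

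**Figure D1:**
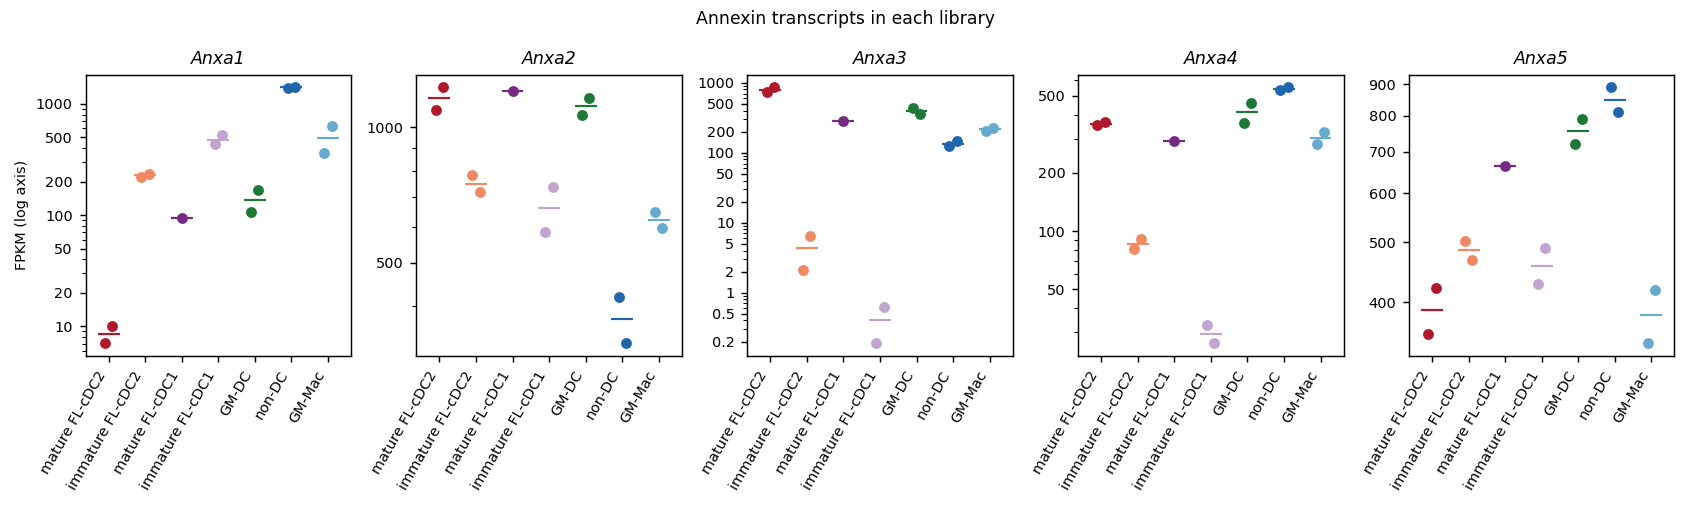
FPKM of Anxa1 to Anxa5 on log axes, each with its own range, in the 7 subsets. Points are libraries and bars are means (n = 2, and n = 1 for mature FL-cDC1s). The Anxa1 means run between 8.52 FPKM in mature FL-cDC2s and 1401 FPKM in non-DCs, and Anxa3 and Anxa4 are lowest in the immature FL-cDC subsets.

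Anxa2 and Anxa5 were abundant everywhere and varied least. Anxa2, which links membranes to actin and, with S100A10, binds plasminogen activators at the cell surface, had 1090.3 and 1226 FPKM in mature FL-cDC2s, 781 and 716 FPKM in immature FL-cDC2s, 1200.0 FPKM in mature FL-cDC1s, 585 and 735 FPKM in immature FL-cDC1s, 1064 and 1162 FPKM in GM-DCs, 419 and 331 FPKM in non-DCs and 647 and 596 FPKM in GM-Macs. All 5 libraries of CD83+ FL-cDCs and GM-DCs were above all 8 others, and the ratio of the highest to the lowest mean was 3.20. Anxa2 was higher in mature FL-cDC2s than in immature FL-cDC2s (log2 fold change 1.05, SE 0.21, adjusted p = 0.00446) and than in non-DCs (1.42, SE 0.21, adjusted p = 0.000917). Between mature and immature FL-cDC1s the change was 0.77 (SE 0.31) and did not pass (adjusted p = 0.101), nor did 0.60 (SE 0.35) between GM-DCs and GM-Macs (adjusted p = 0.273).

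Anxa5, the protein used to stain exposed phosphatidylserine on dying cells, had 356 and 422 FPKM in mature FL-cDC2s, 503 and 468 FPKM in immature FL-cDC2s, 663 FPKM in mature FL-cDC1s, 428 and 489 FPKM in immature FL-cDC1s, 719.5 and 791 FPKM in GM-DCs, 889.7 and 810.4 FPKM in non-DCs and 344 and 419 FPKM in GM-Macs. Non-DCs and GM-DCs were highest, and the mature FL-cDC2s and GM-Macs overlapped at the low end. Anxa5 was lower in mature FL-cDC2s than in non-DCs (log2 fold change -1.34, SE 0.20, adjusted p = 0.00100) and in immature FL-cDC2s than in non-DCs (-1.44, SE 0.20, adjusted p = 0.000903). Between mature and immature FL-cDC2s the fitted difference was 0.10 (SE 0.20, adjusted p = 0.713), and it was -0.32 when scaled by library size alone, so no direction is given.

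The S100 genes have short transcripts, of 399 to 730 bases as implied by the counts and FPKM, against 1394 to 2073 bases for the 5 annexins. The 2 libraries of a subset differed in how well short transcripts were recovered. The median log2 ratio of replicate 2 to replicate 1 over 679 genes with transcripts under 1000 bases was 1.05 in immature FL-cDC1s, 0.84 in GM-Macs, 0.47 in mature FL-cDC2s, -0.16 in GM-DCs, -0.51 in non-DCs and -0.54 in immature FL-cDC2s. Over 4766 genes of 2000 bases or more it was -0.47, -0.43, -0.15, 0.01, 0.09 and 0.09 in the same subsets. S100a4, S100a6 and S100a10 moved with the short transcripts in direction in every pair but the GM-DCs, and S100a4 in immature FL-cDC2s had the largest of these ratios, -1.98. The main S100 results, and calls gained, are therefore also given from a fit with an offset for each gene's transcript length in each library, a choice made after the data were seen.

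**Figure D2:**
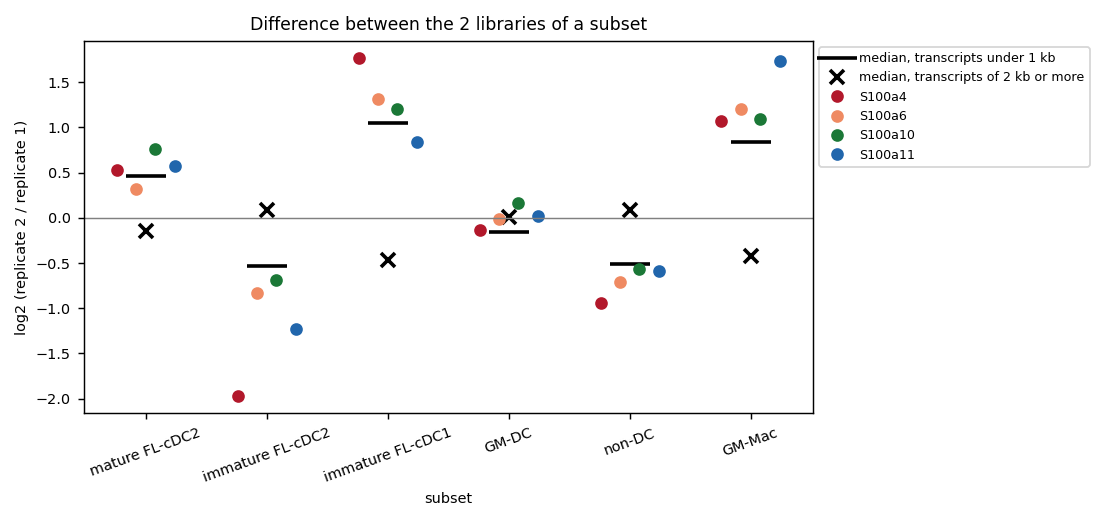
Log2 ratio of replicate 2 to replicate 1 (vertical axis) in the 6 subsets with 2 libraries (horizontal axis). Black bars give the median of 679 short transcripts, crosses that of 4766 long ones, and coloured points single S100 genes. S100a4, S100a6, S100a10 and S100a11 lie on the same side of 0 as the short-transcript median in all subsets but the GM-DCs.

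S100a10, the light chain of the annexin A2 complex, had 7.25 and 12.3 FPKM in mature FL-cDC2s, 53.7 and 33.2 FPKM in immature FL-cDC2s, 69.9 FPKM in mature FL-cDC1s, 136 and 314 FPKM in immature FL-cDC1s, 188 and 210.1 FPKM in GM-DCs, 28.1 and 19.0 FPKM in non-DCs and 85.9 and 184 FPKM in GM-Macs. Mature FL-cDC2s were lowest with no overlap, and the 2 highest subsets, immature FL-cDC1s and GM-DCs, overlapped. S100a10 fell in mature relative to immature FL-cDC2s by 1.72 on the log2 scale (SE 0.37, adjusted p = 0.00616), and with length offsets the log2 fold change was -1.59 (adjusted p = 0.000554). It was lower in mature FL-cDC2s than in GM-DCs by a log2 fold change of -4.19 (SE 0.59, adjusted p = 0.000838), or -3.92 with length offsets (adjusted p = 6.99e-06). Its partner Anxa2 was among the highest in these mature FL-cDC2s, so that S100a10 FPKM was 0.665% and 1.00% of Anxa2 FPKM in mature FL-cDC2s, 4.64% to 6.87% over immature FL-cDC2s, mature FL-cDC1s and non-DCs, 13.3% to 30.8% over GM-DCs and GM-Macs, and 23.2% and 42.7% in immature FL-cDC1s.

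S100a4, a binder of non-muscle myosin that marks motile cells, differed widely between libraries of a subset. It had 74.6 and 108 FPKM in mature FL-cDC2s, 181 and 46.1 FPKM in immature FL-cDC2s, 79.2 FPKM in mature FL-cDC1s, 26.4 and 90.1 FPKM in immature FL-cDC1s, 190.0 and 173 FPKM in GM-DCs, 17.7 and 9.21 FPKM in non-DCs and 47.6 and 100.2 FPKM in GM-Macs. Only the non-DCs stood below all other libraries, and the other 5 pairs of neighbours overlapped. S100a4 was higher than in non-DCs in mature FL-cDC2s (log2 fold change 2.55, SE 0.60, adjusted p = 0.00859) and in immature FL-cDC2s (2.42, SE 0.60, adjusted p = 0.0121). With length offsets these became 1.83 (adjusted p = 0.00477) and 1.36 (adjusted p = 0.0172). The second missed the threshold without non-DC replicate 2 (2.03, adjusted p = 0.0688) and without immature FL-cDC2 replicate 1 (1.19, adjusted p = 0.0623).

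S100a6, or calcyclin, a small calcium-binding protein of dividing and motile cells, had 30.3 and 37.8 FPKM in mature FL-cDC2s, 110.1 and 61.8 FPKM in immature FL-cDC2s, 49.98 FPKM in mature FL-cDC1s, 101 and 251 FPKM in immature FL-cDC1s, 99.0 and 98.4 FPKM in GM-DCs, 20.4 and 12.5 FPKM in non-DCs and 51.0 and 118 FPKM in GM-Macs. The non-DCs were again lowest, the mature FL-cDC2s next, and GM-DCs, immature FL-cDC2s and GM-Macs overlapped in the middle. S100a6 was higher in immature FL-cDC2s than in non-DCs (log2 fold change 1.75, SE 0.34, adjusted p = 0.00413), or 1.11 with length offsets (adjusted p = 0.00184). In mature against immature FL-cDC2s it was at -0.90 (SE 0.33, adjusted p = 0.0546), and at -0.74 with length offsets (adjusted p = 0.00893).

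The calprotectin genes were nearly silent. S100a8 had 21 reads in mature FL-cDC1s, 14 and 29 reads in GM-DCs, 7 and 6 reads in non-DCs and 148 and 87 reads in GM-Macs (5.95 and 4.73 FPKM), and 0 reads in all 6 libraries of mature FL-cDC2s, immature FL-cDC2s and immature FL-cDC1s. S100a9 had 11 reads in mature FL-cDC1s, 18 and 38 reads in GM-DCs and 132 and 22 reads in GM-Macs (3.997 and 0.888 FPKM), and 0 reads in the other 8 libraries. The GM-Mac libraries lay above all others for S100a8, and GM-Macs overlapped GM-DCs for S100a9. Taking 3 reads in each library as the limit that a count of 0 allows, S100a8 was at least 8.64-fold higher in mature than in immature FL-cDC1s, at least 6.72-fold lower in mature FL-cDC2s than in GM-DCs, and S100a9 at least 21.9-fold lower in non-DCs than in GM-Macs. The limit for S100a8 against GM-DCs was 4.36-fold from GM-DC replicate 1 and 9.08-fold from replicate 2, and that for S100a9 was 35.6-fold from GM-Mac replicate 1 and 8.07-fold from replicate 2. Reads came from PCR without molecular identifiers, so this limit covers counting error only. S100a8 was lower in GM-DCs than in GM-Macs by a log2 fold change of -2.94 (SE 0.73, adjusted p = 0.0352), and this missed the threshold on leaving out any 1 of the 4 GM libraries (adjusted p = 0.0508 to 0.259) and with length offsets (0.0825).

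Markers of neutrophils were read beside them. The 12 markers summed to 0.564 to 17.7 FPKM over the 4 FL-cDC subsets, 12.3 to 15.7 FPKM in GM-DCs, 424 to 547 FPKM in non-DCs and 388 to 492 FPKM in GM-Macs, with 2 of 12 at 1 FPKM or more in non-DCs and 4 of 12 in GM-Macs. Mmp8, at 460.4 and 376 FPKM in GM-Macs, and Csf3r, at 15.1 and 7.96 FPKM, made up most of the sums in non-DCs and GM-Macs, and the other markers above 1 FPKM in any library were Prtn3, up to 2.70 FPKM, and Lcn2, up to 12.3. The remaining 8 (Ly6g, Elane, Mpo, Ltf, Camp, Ngp, Retnlg and Cxcr2) were at 0.921 FPKM or less in every library. Lcn2, another neutrophil granule gene, was highest where S100a9 was, at 12.3 FPKM in GM-Mac replicate 1 against 1.34 in GM-Mac replicate 2. Mmp8 and Csf3r were not. Their highest values, 466 and 79.7 FPKM, lay in non-DC libraries, where S100a9 had 0 reads. The 7 monocyte markers summed to 2.15 to 1023 FPKM over the FL-cDC subsets, 66.1 to 72.1 in GM-DCs, 342 to 404 in non-DCs and 877 to 2255 in GM-Macs, and the part of such cells in the S100a8 and S100a9 counts was not tested.

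**Figure D3:**
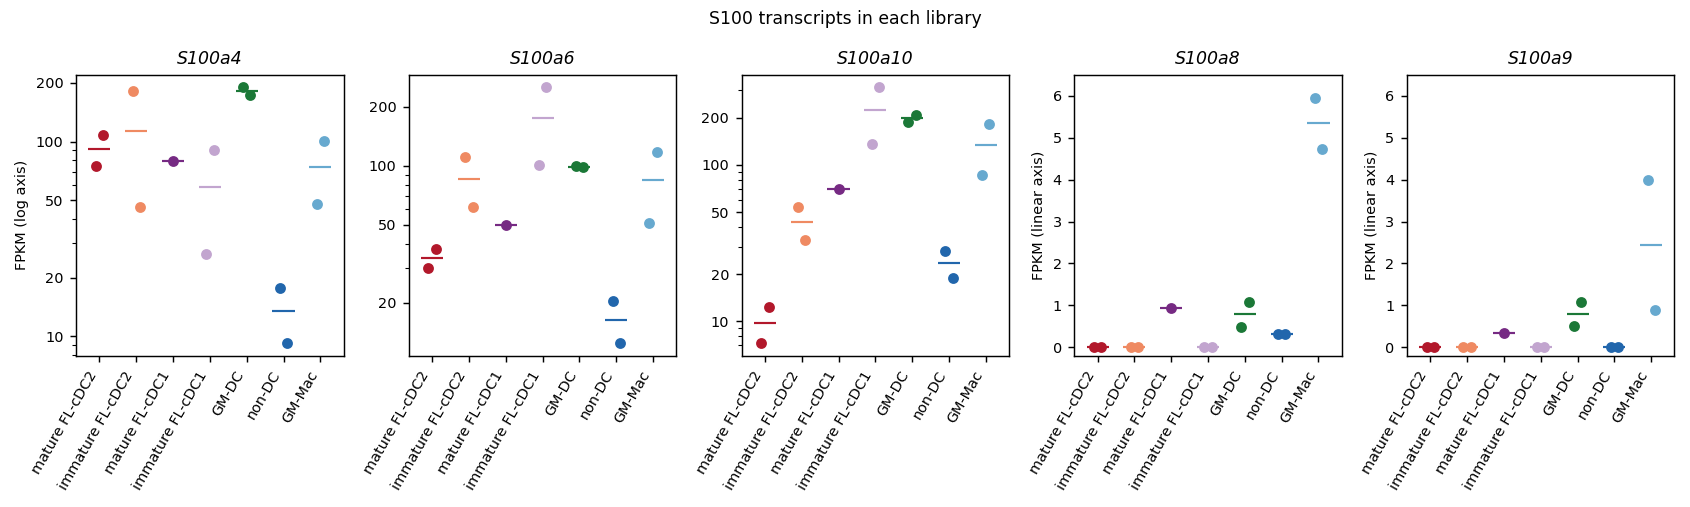
FPKM of the 5 S100 genes in the 7 subsets, on log axes for S100a4, S100a6 and S100a10 and on linear axes for S100a8 and S100a9. Points are libraries and bars are means (n = 2, and n = 1 for mature FL-cDC1s). Mature FL-cDC2s are lowest for S100a10, non-DCs for S100a4 and S100a6, and S100a8 passes 4 FPKM only in GM-Macs.

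Maturation in the cDC2s was asked by setting CD83+ against CD83- cells of FL-BM culture. Of the 10 genes, 8 passed the filter on low counts, the 8 that were read in every library, and 5 changed, where 46.5% of all 13242 genes tested did. Anxa2, Anxa3 and Anxa4 rose (22.5% of all genes rose) and Anxa1 and S100a10 fell (24% of all genes fell). The median log2 fold change of the 8 was 0.12, against 0.00 over all genes. Scaling by library size alone, in place of TMM normalization, moved the median of all genes by -0.40 here, by 0.22 and 0.63 in mature and immature FL-cDC2s over non-DCs, by 0.44 in immature FL-cDC2s over immature FL-cDC1s, by -0.15 in mature FL-cDC2s over GM-DCs, by 0.24 in GM-DCs over GM-Macs, by -0.16 in non-DCs over GM-Macs and by -0.43 in the difference of the maturation changes, and fold changes are given relative to the TMM scale. Of the 7 other annexins 4 were tested and 2 changed, with Anxa6, an annexin of endosomes, lower (log2 fold change -3.09, SE 0.21, adjusted p = 2.08e-05) and Anxa7 higher (1.16, SE 0.19, adjusted p = 0.00165). Of the 11 other S100 genes 5 were tested and 2 rose, of which only S100a1 reached 10 FPKM (2.30, SE 0.31, adjusted p = 0.000578).

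In the cDC1s, where 1 mature library was set against 2 immature ones and the lone library was assumed to vary like the others, 3 of the 8 genes read in every library changed, where 20.9% of 14936 genes did. Anxa3 and Anxa4 rose (12.6% of all genes) and Anxa1 fell (8.28%). S100a8 and S100a9 entered this fit of 13 libraries, and the later ones of that size, only through the subsets where they were read, so they are left out of the counts. S100a6 and S100a10 were at -1.94 and -1.81 on the log2 scale and missed the threshold (adjusted p = 0.0817 and 0.0883), against a median of -1.11 over short transcripts in the same comparison. With length offsets all 8 passed, where 30.0% of all genes did. Among them were Anxa2 at 1.22, Anxa5 at 0.73, S100a6 at -1.04 (adjusted p = 0.0141), S100a10 at -0.89 (adjusted p = 0.0225) and S100a4 at 1.45 (adjusted p = 0.0208). Anxa6 fell in the cDC1s as well (-1.68, SE 0.33, adjusted p = 0.00592), and 0 of the 7 other S100 genes tested passed by edgeR, with 0 at an unadjusted p under 0.05.

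Whether maturation moved a gene by different amounts in the 2 lineages was tested as a difference of differences. By edgeR 0 of the 8 genes passed, where 6.03% of all genes did (1.03% higher and 5% lower). Anxa1 alone had an unadjusted p under the threshold, 0.00669 (log2 value -1.93, SE 0.57, adjusted p = 0.0808). DESeq2 called 1 of the 8 (14.6% of all genes), limma on log2(FPKM + 1) called 2 (12.8%) and length offsets in edgeR 1 (9.29%), Anxa1 at -2.29 (adjusted p = 0.00828). Anxa3 was at -1.43 (SE 0.91, adjusted p = 0.425) and Anxa4 at -0.82 (SE 0.38, adjusted p = 0.257).

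**Figure D4:**
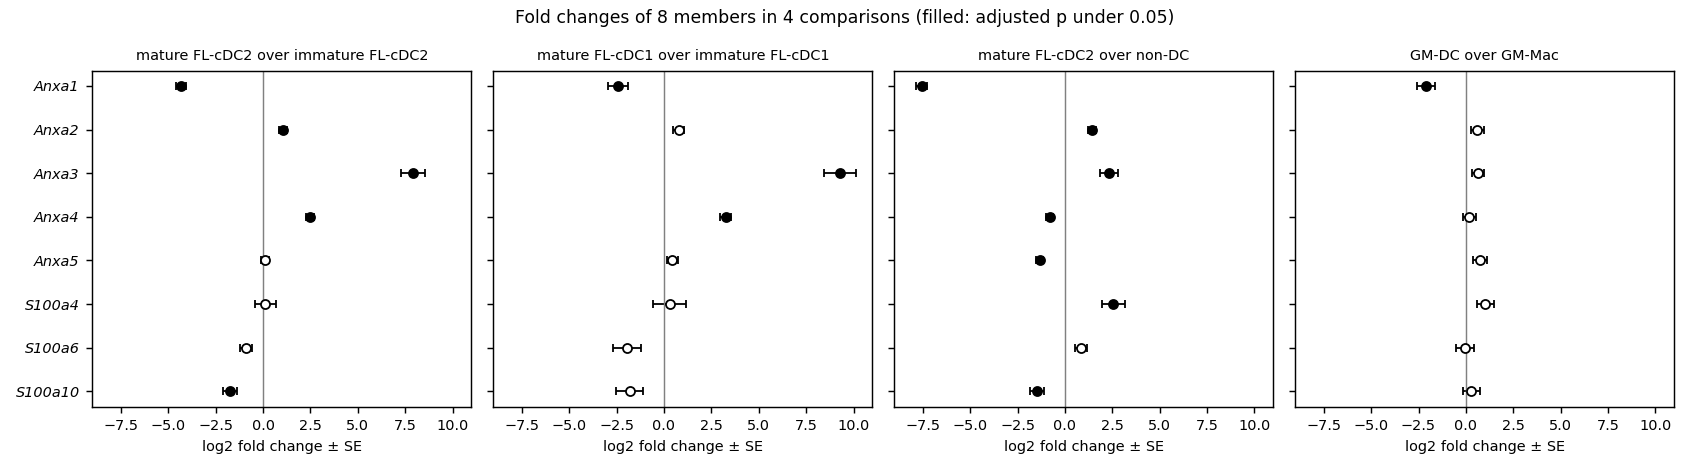
Log2 fold change and its standard error (horizontal axis) of the 8 genes detected in all libraries (vertical axis) in 4 comparisons. Filled points passed an adjusted p of 0.05. Anxa1 is filled and left of 0 in all 4 panels, while Anxa3 and Anxa4 are filled and right of 0 in both maturation panels.

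Against the non-DCs, which shared the cDC2 gate, 7 of the 8 genes tested differed in mature FL-cDC2s (53.5% of all genes did) and 6 of 8 in immature FL-cDC2s (47.6%). These comparisons share the non-DC libraries. In mature FL-cDC2s Anxa2, Anxa3 and S100a4 were higher (26.4% of all genes) and Anxa1, Anxa4, Anxa5 and S100a10 lower (27.1%), S100a10 by a log2 fold change of -1.47 (SE 0.37, adjusted p = 0.0107), or -2.07 with length offsets (adjusted p = 0.000162). That S100a10 call was lost without non-DC replicate 1 (-1.18, adjusted p = 0.0627) and without mature FL-cDC2 replicate 1 (-1.13, adjusted p = 0.0607). In immature FL-cDC2s S100a4 and S100a6 were higher (23.6%) and Anxa1, Anxa3, Anxa4 and Anxa5 lower (24%), with log2 fold changes of -3.25 for Anxa1 (SE 0.25, adjusted p = 5.07e-05), -5.58 for Anxa3 (SE 0.56, adjusted p = 0.000162) and -3.28 for Anxa4 (SE 0.21, adjusted p = 2.84e-05). S100a10 was at 0.25 in the immature cells and at -0.48 with length offsets, and neither passed (adjusted p = 0.595 and 0.0663). The median of the short transcripts was 0.54 in the mature and 0.56 in the immature comparison, the direction in which S100a4 and S100a6 lay.

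Receptors and partners of these proteins were set beside them as a list of 11 genes, of which 9 passed the filter. In mature FL-cDC2s over non-DCs all 9 differed, where 53.5% of all genes did. Of these 2 were higher (26.4% of all genes) and 7 lower (27.1%), with a median of -6.24 against 0.07 over all genes. Fpr1, a formyl peptide receptor, had 0.0244 and 0 FPKM in mature FL-cDC2s against 144 and 144 FPKM in non-DCs, and the related Fpr2, the annexin A1 receptor, had 0.0729 and 0 FPKM against 71.2 and 66.0 FPKM. Fpr1 and Fpr2 were thus highest in the subset with the most Anxa1, and all libraries of mature FL-cDC2s lay below all of non-DCs. With 0 to 9 reads in mature FL-cDC2s, Fpr1, Fpr2 and Plaur passed the filter only through other subsets. Ager, 1 of the 2 higher genes, had 10 and 10 reads in mature FL-cDC2s and 0 and 0 reads in non-DCs, so its call lies near the floor. Being read in another subset was what let these genes in, so the count of 9 and the median are descriptions. Plaur, the urokinase receptor, had 0.0575 and 0.0900 FPKM in mature FL-cDC2s (6 and 9 reads) against 169 and 178 FPKM in non-DCs. Tlr4 had 0.0368 and 0.0234 FPKM in mature FL-cDC2s and 25.4 and 26.7 FPKM in non-DCs (-9.91, SE 0.29). In GM-DCs over GM-Macs 4 of the 8 list genes tested passed, where 19.3% of all genes did. Fpr1, Fpr2, Tlr4 and Plaur fell (10.6% of all genes) and no list gene rose (8.71%). No result with a library left out is given for these 4 calls.

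In GM-BM culture 1 of the 8 genes read in every library differed between GM-DCs and GM-Macs, where 19.3% of 13083 genes did, and this was Anxa1, lower in GM-DCs (10.6% of all genes, and 8.71% higher). The number of the 8 called, and the share of all genes called, moved with the library left out. The Anxa1 call was lost in 1 of 13 alternatives, without GM-DC replicate 1 (-1.80). Over all 13 its log2 fold change lay between -2.52 and -1.56. With length offsets 3 of the 8 passed, where 24.4% of all genes did, with S100a4 at 1.52 (adjusted p = 0.00942), against 1.03 without them (SE 0.43, adjusted p = 0.149), and Anxa5 at 0.96 (adjusted p = 0.0418). Within the first replicates, deposited in 1 table, the log2 ratio of GM-DC to GM-Mac was -1.97 for Anxa1, and within the second replicates -2.21. For S100a6 these ratios were 0.76 and -0.54 and for S100a10 0.93 and -0.09, so no direction is given for either. The 6 other annexins and 4 other S100 genes tested gave 0 calls by edgeR, with 3 and 1 at an unadjusted p under 0.05.

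The step between macrophage-marked cells and DCs was compared between the cultures as the difference of GM-DCs from GM-Macs minus that of mature FL-cDC2s from non-DCs. Anxa1 and Anxa5 passed, 2 of the 8 genes read in every library, where 8.51% of all genes did, both positive (5.31%). For Anxa1 the value was 5.48 on the log2 scale (SE 0.55, adjusted p = 0.000590), with the gene lower in the DCs of both cultures and by far more in FL-BM culture. For Anxa5 it was 2.104 (SE 0.37, adjusted p = 0.00689), with GM-DCs at 0.73 over GM-Macs (adjusted p = 0.205) and mature FL-cDC2s at -1.34 over non-DCs. Both passed under all 16 alternatives run. With length offsets 4 of the 8 passed, where 15.8% of all genes did, the others being Anxa4 at 1.00 (adjusted p = 0.0333) and S100a10 at 2.68 (adjusted p = 0.000477), against 1.80 for S100a10 without them (SE 0.74, adjusted p = 0.168).

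Mature FL-cDC2s against GM-DCs gave 2 of the 8 genes read in every library, where 20.6% of all genes were called, both lower (12.9%, and 7.75% higher), namely Anxa1 and S100a10. Anxa1 was at -3.85 (SE 0.41, adjusted p = 0.000182). Anxa5 was at -0.80 (SE 0.26) and missed the threshold (adjusted p = 0.0504), as did S100a6 at -1.38 (SE 0.55, adjusted p = 0.105). With length offsets 4 of the 8 passed, where 31.8% of all genes did, with Anxa5 at -0.79 (adjusted p = 0.00463) and S100a6 at -1.11 (adjusted p = 0.00280) beside them. Of the other annexins, Anxa6 was lower in mature FL-cDC2s (-1.69, SE 0.25, adjusted p = 0.00114), and so was Anxa11 (-1.47, SE 0.30, adjusted p = 0.00644).

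Immature FL-cDC2s against immature FL-cDC1s gave 4 of the 8 genes read in every library (20.3% of all genes), with Anxa3 and Anxa4 higher (11.4%) and Anxa1 and S100a10 lower (8.9%). The log2 fold changes were 2.90 for Anxa3 (SE 0.64, adjusted p = 0.0108), 1.13 for Anxa4 (SE 0.24, adjusted p = 0.0104), -1.53 for Anxa1 (SE 0.37, adjusted p = 0.0180) and -2.89 for S100a10 (SE 0.56, adjusted p = 0.00590). Short transcripts had a median of -1.37 here, and with length offsets, where 23.2% of all genes were called, S100a10 was at -1.64 (adjusted p = 0.000427) and S100a4 at 1.86 (adjusted p = 0.00410), against 0.41 for S100a4 without them (SE 0.71, adjusted p = 0.742). Without immature FL-cDC2 replicate 2 the calls of Anxa3 (1.80), Anxa4 (0.97), Anxa1 (-1.63) and S100a10 (-2.63) were all lost. Without immature FL-cDC1 replicate 2 those of Anxa1 (-1.23) and Anxa4 (1.11) were lost. The share of all genes called also fell in both of these fits. S100a11, a partner of annexin A1, was among the highest of the family in cDC1s. It had 273 and 116 FPKM in immature FL-cDC2s against 1549 and 2781 FPKM in immature FL-cDC1s (-3.99, SE 0.66, adjusted p = 0.00277). Its log2 ratio of replicate 2 to replicate 1 was -1.23 and 0.84 in these subsets, the direction of the short transcripts. No value with length offsets is given for S100a11.

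Non-DCs against GM-Macs, the macrophage-marked subsets of the 2 cultures, gave 5 of the 8 genes read in every library (20.5% of all genes). Anxa1, Anxa4 and Anxa5 were higher in non-DCs (9.29%), Anxa1 3.10-fold (adjusted p = 0.0143), Anxa4 1.97-fold (adjusted p = 0.0192) and Anxa5 2.46-fold (adjusted p = 0.00786), with SEs of 0.38, 0.24 and 0.26 on the log2 scale. S100a6 and S100a10 were lower (11.2%), S100a6 at -2.23 (SE 0.57, adjusted p = 0.0209) and S100a10 at -2.39 (SE 0.55, adjusted p = 0.0140), or -1.18 and -1.24 with length offsets (adjusted p = 0.00272 and 0.00194), where short transcripts had a median of -1.11. By edgeR 0 of these 5 passed when either non-DC library was left out (adjusted p = 0.0503 to 0.164), where 6.8% and 5.04% of all genes did, and S100a6 and S100a10 were lost without GM-Mac replicate 2 (adjusted p = 0.131 and 0.0802) and Anxa4 without GM-Mac replicate 1 (adjusted p = 0.0659). Fpr1 and Fpr2 were higher in non-DCs (2.37, SE 0.69, and 3.13, SE 0.77).

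Over all 7 subsets together 7 of the 8 genes read in every library differed, where 68.4% of all genes did. The one outside was S100a4 (adjusted p = 0.0680), which passed with length offsets (78.4% of all genes), with library size alone (69.6%) and with limma on log2(FPKM + 1) (83.1%).

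The genes whose log2(FPKM + 1) ran most alike with each member over the 13 libraries were taken from 7440 genes with a subset mean of 10 FPKM or more. The points share depth and the recovery of short transcripts, and the coefficients are descriptions. For Anxa1 they were Lpar6 (r = 0.97), Tmem221 (0.96) and Entpd1 (0.96), for Anxa2 Cmc2, Bbc3 and Zfp524 (all 0.97), for Anxa3 Il18bp (0.98), Sbf2 (0.98) and Prmt2 (0.96), and for Anxa4 Cd63 (0.97), Rnf11 (0.97) and Procr (0.96). Anxa5 had no close match, with Tnip3 (0.82), Ttc33 (0.78) and Slc25a13 (0.76). S100a4 ran with Ifi30 (0.95), Ubxn1 (0.92) and Nenf (0.91), S100a6 with Rp9 (0.98), Alkbh7 (0.97) and Rpl31 (0.96), and S100a10 with Pold4 (0.94), Lgals1 (0.93) and Mif (0.93). S100a8 and S100a9 did not reach the minimum.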

How the data were processed

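Bulk RNA-seq libraries were made from sorted cells with a low-input PCR kit without molecular identifiers. The authors deposited whole read counts and FPKM per gene for each library in 6 tables, aligned to mm10 (the paper names HISAT, the submitters' processing notes STAR 2.6.0c, HTSeq and StringTie 1.3.4d). Which of these gave the counts, and whether strand was used, is not given in the sources used here, so reads of a gene and of an overlapping antisense gene cannot be told apart. No deposited column was left unused.

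Counts were tested in edgeR 4.0.16 (R 4.3.3) with filterByExpr, TMM normalization and the quasi-likelihood F test, two-sided, with Benjamini-Hochberg adjustment over all genes tested and a threshold of 0.05. The cDC2-gated subsets were fitted in 6 libraries, the GM subsets in 4, all other comparisons in 13. SEs were obtained by dividing each log2 fold change by its root F. Alternatives were DESeq2 1.42.0, limma 3.58.1 on log2(FPKM + 1) or log2(FPKM + 0.1) for genes above 1 FPKM, other scalings, no filter, other fits, each library left out, a replicate block and, added after the data were seen, transcript length offsets. The test was checked on simulated data in which 200 genes changed, all genes shared a common spread and no transcript length effect was drawn. That check does not cover the large shares of genes called or the uneven recovery of short transcripts seen here. The members and lists were chosen with earlier results of these data known. The named genes are the members, list genes with a subset mean of at least 10 FPKM that passed a test, and the 3 genes most alike to each member. Ager, below that mean, is named for its low reads. Library totals of 46042095 to 71330242 reads put the limit of 3 reads at 0.0421 to 0.0652 CPM. Promoter sequences and gene positions are from RefSeq (GRCm38.p6).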

Additional observations from a re-analysis of the deposited data

Results flagged for a closer look

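Anxa1 and Anxa5 differed between the cultures in the step between GM-DCs and GM-Macs on the one hand and mature FL-cDC2s and non-DCs on the other, by the test of that difference. The difference of differences was 5.48 on the log2 scale for Anxa1 and 2.104 for Anxa5. Culture and subset coincide here, and the GM-BM libraries lay in 3 deposited tables apart from that of the mature FL-cDC2s and non-DCs, so these cannot be told apart.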

How the results depend on the processing

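Of 41 calls of a member in a comparison, 22 were kept under every alternative run and 19 were lost under at least 1, with no called value turning sign. In the cDC2-gated comparisons 15 of 18 were kept and in the others 7 of 23, and all 6 calls of S100a8 and S100a9 were among those lost. With 1 or 2 libraries a subset, leaving 1 out makes the lone library stand for its group by the spread of the others.

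The number of members called, here out of all 10 with S100a8 and S100a9, moved by over 1.5 times as follows, with the share of all genes called in brackets, and the cause was not tested. For mature over immature FL-cDC1s DESeq2 called 7 (32.7%) and length offsets 9 (30.0%), against 4 (20.9%). For the maturation change in FL-cDC2s minus that in FL-cDC1s DESeq2 (14.6%), library size alone (8.3%) and length offsets (9.29%) each called 1 and limma called 3 with a pseudocount of 1 (12.8%) or 0.1 (12.2%), against 0 (6.03%). A fit of 2 subsets alone called 8 (35.0%) for mature FL-cDC2s over GM-DCs, against 4 (20.6%), and 2 (15.4%) for immature FL-cDC2s over immature FL-cDC1s, against 4 (20.3%). The fit of all 13 libraries called 1 (22.2%) for GM-DCs over GM-Macs, against 2 (19.3%). For the difference between cultures length offsets (15.8%) and limma on log2(FPKM + 1) (16.1%) each called 4, against 2 (8.51%). Leaving out 1 library also moved the number for GM-DCs over GM-Macs and for immature FL-cDC2s over immature FL-cDC1s. It did so for mature FL-cDC2s over GM-DCs and for non-DCs over GM-Macs as well. The share of all genes called moved too in these 4 comparisons. Such a fit leaves 1 library in a subset, so its counts are not given here.

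Turns of sign were seen in values that had not passed. S100a6 in GM-DCs over GM-Macs, at -0.05, was 0.0213 with DESeq2, 0.00544 with DESeq2 size factors, 0.232 with library size alone, 0.345 and 0.351 with limma, 0.106 with the replicate block, 0.420 with length offsets and -0.49 to 0.79 with 1 library left out. In mature over immature FL-cDC2s library size alone gave -0.32 for Anxa5 and -0.32 for S100a4, and limma -0.324 and -0.324 for Anxa5 and -0.0311 and -0.0282 for S100a4. In immature FL-cDC2s over immature FL-cDC1s library size alone gave 0.181 for Anxa2 and 0.0823 for Anxa5, limma 0.189 and 0.189 for Anxa2 and 0.0844 and 0.0846 for Anxa5, and length offsets 0.177 for Anxa2. S100a10 in immature FL-cDC2s over non-DCs was -0.48 with length offsets. In the maturation change in FL-cDC2s minus that in FL-cDC1s, Anxa2 was -0.233 with library size alone, -0.243 and -0.243 with limma and -0.122 with length offsets, and S100a10 was -0.469, -0.499 and -0.590 and -0.668 in that order. S100a8 in the difference between cultures, at 3.28 (adjusted p = 0.287), was -1.43 with limma on log2(FPKM + 1), where it passed (adjusted p = 0.00309), and -0.612 on log2(FPKM + 0.1).

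Leaving out 1 library also turned these uncalled values, with the range over libraries: Anxa2 -0.56 to 0.0402 and S100a4 -0.81 to 1.76 in immature FL-cDC2s over immature FL-cDC1s, Anxa4 -0.0303 to 0.38 and S100a10 -0.13 to 1.05 in GM-DCs over GM-Macs, Anxa4 -0.24 to 0.17 in mature FL-cDC2s over GM-DCs, Anxa5 -0.0359 to 0.22 and S100a4 -0.52 to 1.36 in mature over immature FL-cDC2s, S100a10 -0.0814 to 0.54 in immature FL-cDC2s over non-DCs, S100a4 -0.39 to 1.65 in mature over immature FL-cDC1s, and Anxa2 -0.0901 to 0.51, S100a4 -1.56 to 1.02 and S100a10 -0.87 to 0.61 in the maturation change in FL-cDC2s minus that in FL-cDC1s.

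Library size alone moved the share of higher among all genes called to 31.2% against 48.4% in mature over immature FL-cDC2s, 75.1% against 49.6% in immature FL-cDC2s over non-DCs, 81.0% against 56.2% in immature FL-cDC2s over immature FL-cDC1s, 56.2% against 45.1% in GM-DCs over GM-Macs and 32.1% against 45.4% in non-DCs over GM-Macs. The libraries of 1 number shared no stated source. The correlation of their deviations ran between -0.18 and 0.33. The uneven recovery of short transcripts enters these values, so whether the numbers pair the libraries is not known. A replicate block gave 5 members called in non-DCs over GM-Macs, against 7, and the same number as without it in each of the other 7 comparisons it was fitted to, the difference between cultures included, where it was added after the data were seen. It lost S100a9 in mature FL-cDC2s over GM-DCs (adjusted p = 0.0756) and S100a8 and S100a9 in non-DCs over GM-Macs (0.0518 and 0.0540), and it added Anxa5 in mature FL-cDC2s over GM-DCs (-0.80). No paired analysis was possible for the comparisons with mature FL-cDC1s because their single library carried no number.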
